A study of Mus musculus with 12 samples.

Results

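The 10 genes described here are targets of p53 with roles in cell death, measured by RNA-seq in newborn mouse lung. All 10 were found in the deposited table of 23478 genes and had enough counts to be among the 15761 tested. They are Eda2r, Fas and Tnfrsf10b, which encode receptors of the tumour necrosis factor family, Bax, Bbc3 and Pmaip1, which encode death-promoting proteins of the BCL2 family, and Aen, Perp, Phlda3 and Zmat3, whose products act by other routes. They were chosen by name as known p53 targets, with earlier results of these data known. Newborn C57/Bl6 mice received saline or 25 mg/kg of the gold compound aurothioglucose (ATG), an inhibitor of thioredoxin reductase, by intraperitoneal injection on day 0. They then spent 72 h in room air or in more than 95% oxygen (hyperoxia), and RNA was taken from the lungs after the lavage fluid had been removed. The 12 libraries fall into 4 groups of 3: saline in room air, ATG in room air, saline in hyperoxia and ATG in hyperoxia. All were of the same strain and carried no engineered allele by the labels. Whole lungs hold many cell types, so fewer cells of a type and less RNA per cell cannot be told apart.

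The protein p53 is a transcription factor that is stabilised when DNA is damaged or cells are stressed, and it binds response elements made of a pair of half-sites near or within its target genes. Among the targets, BAX opens the outer mitochondrial membrane, while PUMA (from Bbc3) and NOXA (from Pmaip1) are BH3-only proteins that free it to act by binding survival proteins. PUMA binds BCL2, BCL-xL and MCL1, while NOXA binds a narrower set that includes MCL1. FAS and TNFRSF10B carry death domains that recruit FADD and caspase 8 from the cell surface, and EDA2R is the receptor of the ectodysplasin A2 ligand. High oxygen is a known source of oxidative DNA damage in lung cells.

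Since all members were picked as p53 targets, promoters are shown for the 2 that hold a p53 half-site and for Eda2r, which had the largest response to oxygen. Each window runs from 250 bases before a RefSeq transcript start (GRCm38.p6) and is cut so that at most 20 transcribed bases remain. Capitals mark a full match to the 10-base consensus p53 half-site, a pattern that is its own reverse complement, so 1 search covered both strands. No other motif was searched. Bax lies at chr7:45466884-45467148 on the minus strand and holds AGGCAAGCTT from 201 bases before the start.
Bax: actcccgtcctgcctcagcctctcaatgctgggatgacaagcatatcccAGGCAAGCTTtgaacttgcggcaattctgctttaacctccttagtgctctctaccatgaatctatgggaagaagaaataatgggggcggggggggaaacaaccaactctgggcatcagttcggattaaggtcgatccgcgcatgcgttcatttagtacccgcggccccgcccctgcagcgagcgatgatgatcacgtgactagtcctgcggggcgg
Aen lies at chr7:78895677-78895946 on the plus strand and holds GGGCTTGTCC from 10 bases after this start, which is 121 bases before a second RefSeq start.
Aen: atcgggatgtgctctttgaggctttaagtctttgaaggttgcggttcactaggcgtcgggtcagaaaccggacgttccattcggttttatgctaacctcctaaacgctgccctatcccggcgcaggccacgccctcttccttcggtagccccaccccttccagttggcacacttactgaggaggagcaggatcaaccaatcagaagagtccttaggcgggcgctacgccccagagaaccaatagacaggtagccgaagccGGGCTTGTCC
Eda2r lies at chrX:97377215-97377459 on the minus strand and holds no full match, only AGGCTAGATC with 1 mismatch at 217 bases before the start.
Eda2r: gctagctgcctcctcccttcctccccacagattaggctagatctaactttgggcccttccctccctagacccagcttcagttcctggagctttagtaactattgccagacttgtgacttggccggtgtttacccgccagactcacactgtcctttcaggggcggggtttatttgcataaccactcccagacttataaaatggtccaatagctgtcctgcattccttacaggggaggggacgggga
RefSeq promoter windows were matched for 6 of the 10 genes, and Bax and Aen were the 2 with a full half-site. These genes had 9 windows, and the 2 Aen windows overlap and hold the same site. The shares that follow count windows, so they cannot be set directly against a count of genes. Over the whole windows of 300 bases, 8.36% of 32851 RefSeq promoter windows held a full match and 50.9% a match with at most 1 mismatch. No member window held a pair of half-sites, against 2.71% of all windows. A match is a run of letters only, and response elements outside these windows were not searched.

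Each library held 14331749 to 20486735 counts. Levels are given in CPM, counts scaled to a common library size with TMM factors, always in the order of replicates 1, 2 and 3. Lung epithelial markers summed to 17491 to 26902 CPM in every library, with endothelial markers at 2212 to 2922 CPM. Most of the epithelial sum came from Scgb1a1 and Sftpc, so it says little of the other epithelial markers. Some libraries stood apart in markers of cell types other than lung epithelium and endothelium, and the source of that RNA was not tested. The 8 cardiomyocyte markers, of which none was at 0 in any library, summed to 677 to 945 CPM (saline) and 569.7 to 978 CPM (ATG) in room air, and 461 to 3149 CPM (saline) and 425 to 6967 CPM (ATG) in hyperoxia. The high ends belong to saline hyperoxia 2 and ATG hyperoxia 2. Saline hyperoxia 1 had the most skeletal muscle marker counts, 329 CPM, where no other library passed 61.3 CPM. Thymocyte markers, of which up to 2 were at 0 in a library, were highest in saline hyperoxia 2 (87.3 CPM) and 3 (37.7 CPM) and lay at 4.88 to 20.5 CPM elsewhere. B cell markers stood at 13.1 CPM in ATG hyperoxia 2 and at 21.6 to 37.5 CPM in the others. The part of these markers in the results was not tested beyond leaving out libraries and a cardiac covariate, and the calls of Eda2r, Bax, Pmaip1, Tnfrsf10b, Aen, Phlda3 and Zmat3 given next held without any 1 library. Sex-linked genes called 3 males in saline room air, 1 in ATG room air, 1 in saline hyperoxia and 2 in ATG hyperoxia, so sex is not balanced over the groups. Animals and litters are not told apart in the labels, so p-values measure only the spread between these samples, which may be technical.

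Hyperoxia raised 8 of the 10 death genes after saline and 8 of 10 after ATG, while Bbc3 and Perp did not pass the test in either. Across all genes 4.7% were called higher after saline and 5.42% after ATG, and 4.5% and 6.26% were called lower. No member was called lower. The median log2 fold change of the 10 was 1.61 after saline and 1.52 after ATG, where the median over all genes was -0.0017 and 0.00079. The log2 fold changes ran from 0.52 (Perp) to 4.48 (Eda2r) after saline and from 0.53 (Fas) to 4.44 (Eda2r) after ATG. In saline mice 9 of 10 members had every hyperoxia library above every room air library, which 14.6% of all genes did, and in ATG mice 10 of 10 did, against 13.7%. With all 6 hyperoxia libraries set against all 6 in room air, 9 of 10 members did not overlap, against 5.41% of all genes. Perp was the exception. Without the 2 libraries of high cardiomyocyte markers, 8 members were called higher after saline and 8 after ATG.

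**Figure D1:**
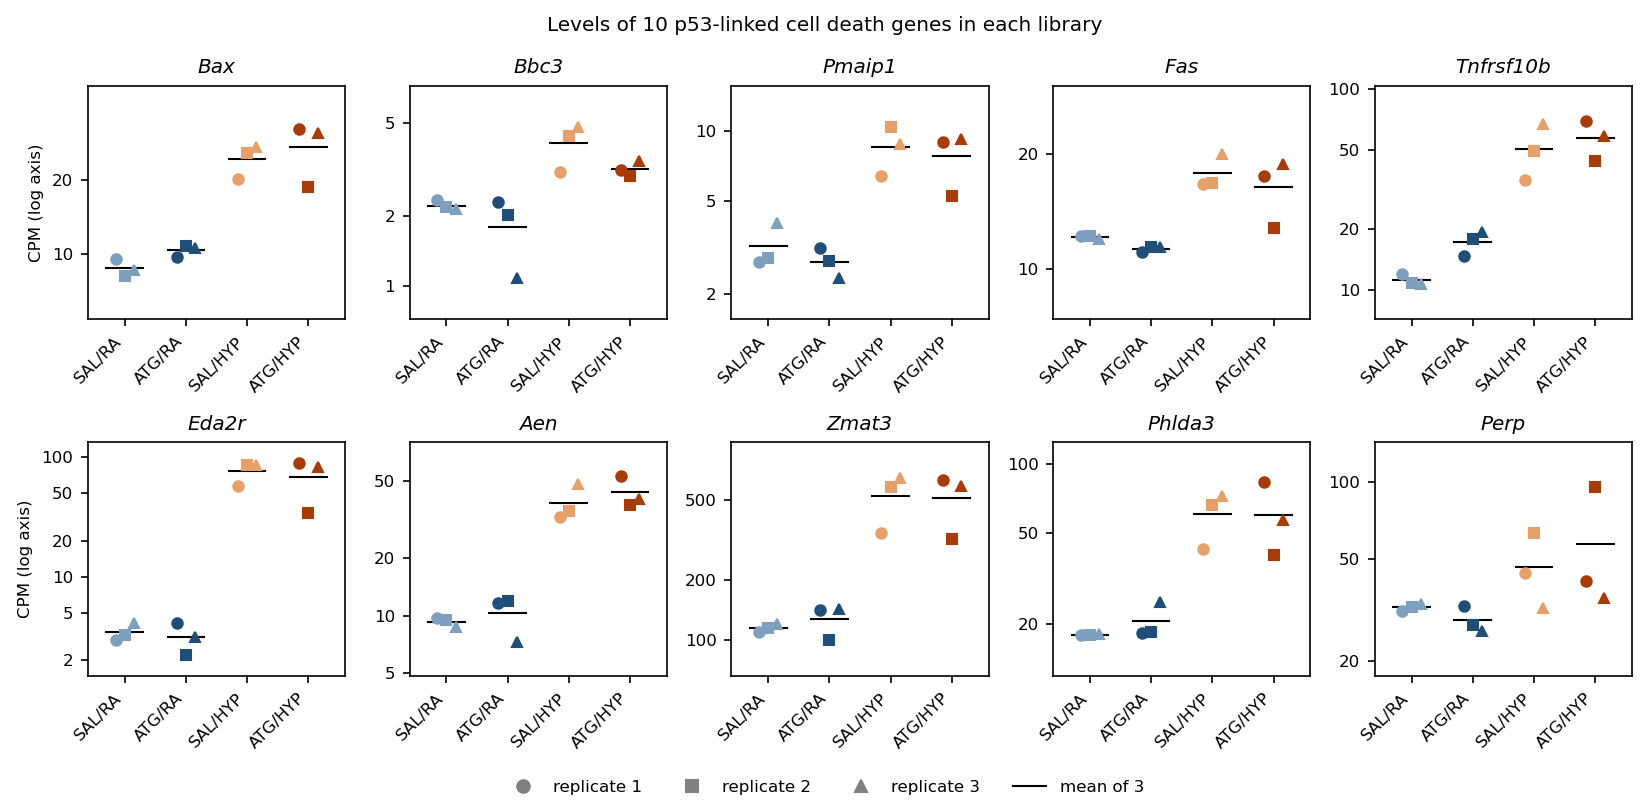
CPM (log axis) of each of the 10 genes in the 12 libraries, 1 point per library, with a bar at the mean of each group of 3 (SAL saline, RA room air, HYP hyperoxia). The hyperoxia points lie above all room air points in 9 panels, and the 2 conditions meet in the Perp panel.

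The 3 receptor genes all rose, and Eda2r had the largest fold change of the 10 members. Eda2r lies at chrX:97333837-97377234 (minus strand). Its room air levels were 2.94, 3.23 and 4.08 CPM after saline and 4.08, 2.22 and 3.11 CPM after ATG. Its hyperoxia levels were 57.9, 85.3 and 86.3 CPM after saline and 88.8, 34.2 and 82.2 CPM after ATG. The lowest hyperoxia library, ATG hyperoxia 2, still stood 8.39-fold above the highest room air library. The rise was 22.3-fold after saline, a log2 fold change of 4.48 (SE 0.34, adjusted p = 4.35e-06), and 21.8-fold after ATG, a log2 fold change of 4.44 (SE 0.34, adjusted p = 4.09e-06). Eda2r is X-linked, and with sex as a covariate its log2 fold changes were 4.37 and 4.50.

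Tnfrsf10b, the mouse death receptor for TRAIL, lies at chr14:69767472-69784411 (plus strand). It measured 12.04, 10.8 and 10.7 CPM in saline room air and 14.7, 17.9 and 19.3 CPM in ATG room air, where the groups did not overlap. Under hyperoxia it reached 35.5, 49.2 and 67.1 CPM after saline and 69.4, 43.9 and 58.7 CPM after ATG, all above both room air groups. The log2 fold change was 2.18 (SE 0.22, adjusted p = 4.66e-05) after saline and 1.73 (SE 0.21, adjusted p = 1.77e-04) after ATG.

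Fas encodes the receptor of FAS ligand and lies at chr19:34290647-34327775 (plus strand). Its levels were 12.2, 12.2 and 11.99 CPM in saline room air and 11.1, 11.4 and 11.4 CPM in ATG room air. Hyperoxia libraries stood at 16.7, 16.7 and 20.02 CPM after saline and 17.5, 12.8 and 18.9 CPM after ATG, again with no overlap. The rise was small, 1.47-fold after saline and 1.45-fold after ATG, with log2 fold changes of 0.55 (SE 0.16, adjusted p = 0.0389) and 0.53 (SE 0.16, adjusted p = 0.0399). Both calls sit near the threshold. The saline call ended when any 1 of 9 libraries was left out (all but ATG room air 2, ATG hyperoxia 2 and ATG hyperoxia 3), with log2 fold changes of 0.46 to 0.61. The ATG call ended when any 1 of 7 was left out (saline room air 1 and 2, the 3 in ATG room air, ATG hyperoxia 1 and 3), with log2 fold changes of 0.43 to 0.57. Neutrophil markers (5 of 6 in the table) summed to 62.7 to 89.9 CPM (saline) and 65.01 to 135 CPM (ATG) in room air, and 42.1 to 196 CPM (saline) and 141 to 186 CPM (ATG) in hyperoxia, and their part in the Fas values was not tested.

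Of the BCL2 family members, Bax and Pmaip1 rose, while Bbc3 was higher in every hyperoxia library without passing the test. Bax lies at chr7:45461695-45466903 (minus strand). It measured 9.51, 8.12 and 8.60 CPM in saline room air and 9.73, 10.8 and 10.6 CPM in ATG room air. In hyperoxia it measured 20.2, 25.7 and 27.1 CPM after saline and 32.1, 18.8 and 31.1 CPM after ATG, and no hyperoxia library overlapped room air. The log2 fold change was 1.47 (SE 0.19, adjusted p = 3.95e-04) after saline and 1.40 (SE 0.19, adjusted p = 4.26e-04) after ATG. A gene model on the same strand, Gm45808, shares 192 exonic bases (12.2%) with Bax, so some reads could have been assigned to either.

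Pmaip1 lies at chr18:66458604-66465558 (plus strand) and had low counts. It stood at 2.74, 2.85 and 4.02 CPM in saline room air and 3.16, 2.76 and 2.33 CPM in ATG room air. The hyperoxia levels were 6.43, 10.4 and 8.76 CPM after saline and 8.93, 5.27 and 9.21 CPM after ATG. Every hyperoxia library was above every room air library, and the log2 fold change was 1.41 (SE 0.28, adjusted p = 0.00635) after saline and 1.51 (SE 0.28, adjusted p = 0.00306) after ATG.

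Bbc3 lies at chr7:16308398-16318334 (plus strand) and was the lowest of the 10 in hyperoxia per kilobase of exon. Room air gave 2.33, 2.17 and 2.13 CPM after saline and 2.30, 2.02 and 1.08 CPM after ATG, and hyperoxia gave 3.09, 4.40 and 4.81 CPM after saline and 3.14, 2.97 and 3.45 CPM after ATG. The 2 oxygen conditions did not overlap. Its log2 fold change was 0.89 (95% interval 0.18 to 1.59, adjusted p = 0.114) after saline and 0.83 (95% interval 0.11 to 1.54, adjusted p = 0.133) after ATG. These unadjusted intervals lie above 0, but neither passed once adjusted over all genes.

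The balance of Bax against survival genes of the same family was also taken. The log2 ratio of Bax to Bcl2 counts was -3.45, -3.71 and -3.84 in saline room air and -3.77, -3.00 and -3.54 in ATG room air. It was -2.30, -1.74 and -1.99 in saline hyperoxia and -1.61, -2.30 and -1.76 in ATG hyperoxia, so all 6 hyperoxia libraries lay above all 6 in room air. The mean difference between oxygen conditions within injections was 1.60 for Bax:Bcl2, 0.98 for Bax:Bcl2l1 (which encodes BCL-xL) and 1.30 for Bax:Mcl1. Each had an exact permutation p of 0.005 (two-sided, adjusted over the 3 ratios 0.005), the smallest that the 400 permutations within injections can give. Within 1 injection the smallest p for 3 against 3 is 0.1, and each of the 3 ratios had that p in both. Raw counts of different genes also carry their lengths, so only changes in the ratios can be read. The 3 ratios share the Bax counts, which alone did not overlap between oxygen conditions, so the 3 tests are not separate results.

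**Figure D2:**
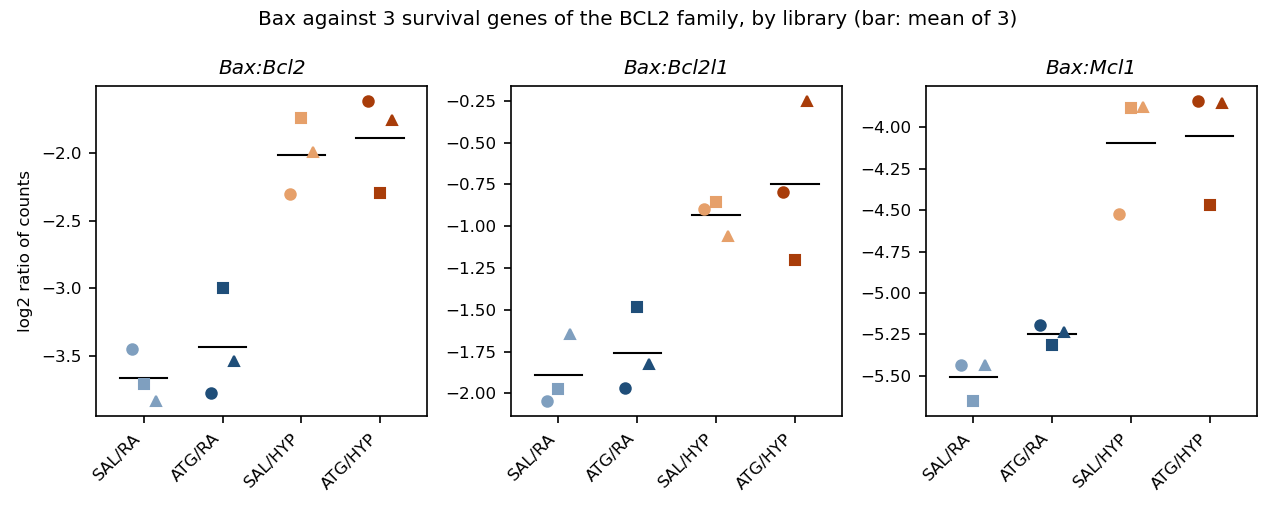
Log2 ratio of Bax counts to Bcl2, Bcl2l1 and Mcl1 counts in each library, 1 point per library with a bar at the mean of 3. In all 3 panels the 6 hyperoxia points lie above the 6 room air points.

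The survival genes themselves differed less between oxygen conditions than Bax. Bcl2 had log2 fold changes of -0.19 after saline and -0.22 after ATG (adjusted p = 0.447 and 0.355). Bcl2l1 had 0.51 and 0.36 (adjusted p = 0.0995 and 0.237), and Mcl1 had 0.06 and 0.16 (adjusted p = 0.779 and 0.312). None of these passed. An antisense gene shares 6.09% of the exonic bases of Bcl2, and strand use in counting is not given in the sources used here.

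The other effectors Aen, Zmat3 and Phlda3 all rose. Aen encodes a nuclease that cuts DNA in dying cells and lies at chr7:78895927-78911209 (plus strand). It measured 9.72, 9.49 and 8.72 CPM in saline room air, 11.6, 11.97 and 7.30 in ATG room air, 32.8, 35.2 and 48.4 in saline hyperoxia and 53.3, 37.8 and 40.7 in ATG hyperoxia. The lowest hyperoxia library was above the highest room air library by 2.74-fold, and the log2 fold change was 2.06 (SE 0.20, adjusted p = 4.26e-05) after saline and 2.09 (SE 0.20, adjusted p = 2.68e-05) after ATG.

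Zmat3 encodes a zinc finger RNA-binding protein and lies at chr3:32334792-32365665 (minus strand). Its levels were 109.95, 116 and 121 CPM in saline room air and 142, 100.004 and 143 CPM in ATG room air. They were 341, 577 and 642 CPM in saline hyperoxia and 622, 319 and 582 CPM in ATG hyperoxia. The first saline and the second ATG hyperoxia library were the lowest of the 6, still above all room air libraries. The log2 fold change was 2.17 (SE 0.25, adjusted p = 1.33e-04) after saline and 1.99 (SE 0.25, adjusted p = 2.10e-04) after ATG.

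Phlda3 encodes a pleckstrin homology protein that competes with AKT, a survival kinase, for membrane lipids, and lies at chr1:135766085-135769134 (plus strand). It stood at 17.8, 17.8 and 18.1 CPM in saline room air, 18.1, 18.5 and 24.9 in ATG room air, 42.4, 66.1 and 72.5 in saline hyperoxia and 83.04, 40.01 and 56.7 in ATG hyperoxia. Groups of different oxygen did not overlap. The log2 fold change was 1.75 (SE 0.24, adjusted p = 5.38e-04) after saline and 1.54 (SE 0.24, adjusted p = 8.56e-04) after ATG.

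Perp did not pass the test, and its oxygen conditions overlapped after saline but not after ATG. It encodes a tetraspan membrane protein that is also a part of desmosomes in squamous epithelia, and lies at chr10:18845071-18857073 (plus strand). Room air libraries stood at 31.5, 32.5 and 33.5 CPM after saline and 32.8, 27.6 and 26.3 CPM after ATG. Hyperoxia libraries stood at 44.1, 63.4 and 32.3 CPM after saline and 40.9, 95.3 and 35.3 CPM after ATG. The high values were those of saline hyperoxia 2 and ATG hyperoxia 2, the 2 libraries with the high cardiomyocyte markers, and saline hyperoxia 3 fell within the room air range. The log2 fold change was 0.52 (SE 0.30, adjusted p = 0.340) after saline and 0.98 (SE 0.31, adjusted p = 0.0507) after ATG, and neither passed.

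Without ATG hyperoxia 2 the log2 fold change of Perp after ATG was 0.41 (adjusted p = 0.253). Without saline hyperoxia 2 the value after saline was 0.24 (adjusted p = 0.712). Without both these libraries it was 0.24 after saline and 0.42 after ATG. Without saline hyperoxia 1 as well, the library with the most skeletal muscle markers, only saline hyperoxia 3 was left in its group. That library had the lowest Perp level of the 6 in hyperoxia, and the log2 fold change after saline was then 0.01. Over 22 alternative fits the value after saline reached at most 0.73. Without any 1 of saline hyperoxia 2 and 3 and ATG hyperoxia 1 and 3, the ATG value was 1.00 to 1.25, past the threshold. With the summed cardiac markers as a covariate it was 0.40 (adjusted p = 0.0308) and 0.58 (adjusted p = 0.00345), both past the threshold. Squamous epithelial markers, of which up to 2 were at 0 in a library, summed to 4.96 to 7.41 CPM (saline) and 4.73 to 8.14 CPM (ATG) in room air, and 6.94 to 11.7 CPM (saline) and 5.96 to 8.18 CPM (ATG) in hyperoxia. Their part in the Perp values was not tested. Of the 6 desmosome genes tested as partners of Perp, Pkp2 was called higher after saline (0.43) and after ATG (0.40), and no other passed (medians 0.52 and 0.44). The saline call for Pkp2 ended without saline room air 2 or 3 or saline hyperoxia 1 or 2 (0.36 to 0.46), and the ATG call without ATG room air 1 or 3 or ATG hyperoxia 2 or 3 (0.28 to 0.43).

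**Figure D3:**
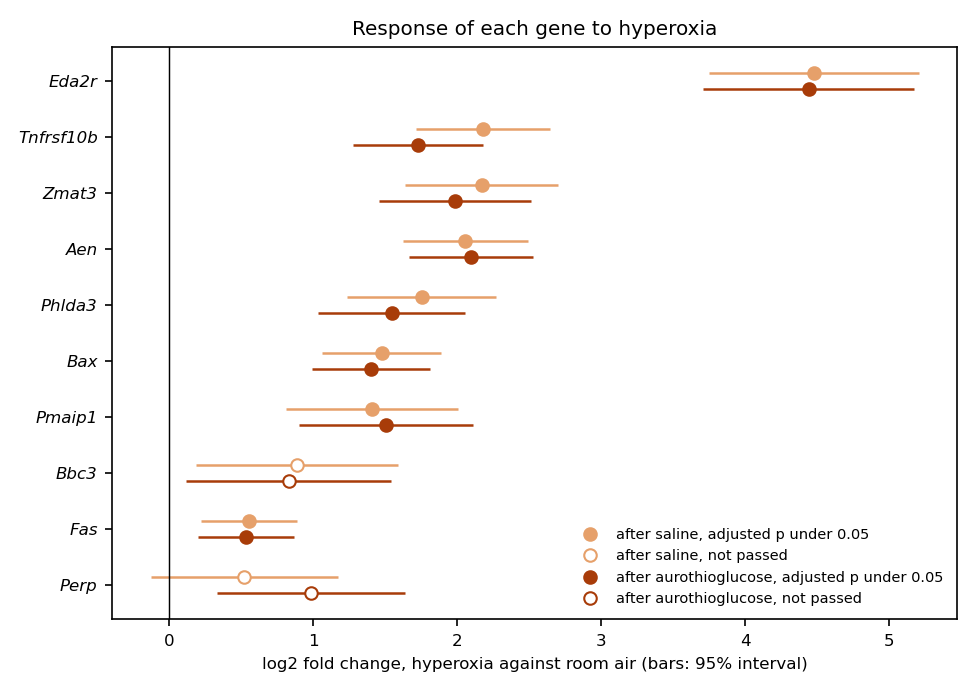
Log2 fold change of each member with its 95% interval, for hyperoxia against room air after saline and after ATG. Filled points passed an adjusted p of 0.05, and open points (Bbc3 and Perp) did not. Eda2r lies farthest from 0 and Fas is the smallest of the changes that passed.

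The members could be ordered by level only per length. In saline room air Perp led with 16.6 ± 0.507 CPM per kilobase of exon (mean ± SD, n = 3), then Phlda3 with 11.5 ± 0.104 and Zmat3 with 10.1 ± 0.478. Fas (5.88 ± 0.0597) and Bax (5.55 ± 0.447) followed and lay within their spread of each other. Tnfrsf10b (2.05 ± 0.139), Aen (1.60 ± 0.0896), Pmaip1 (1.17 ± 0.259) and Bbc3 (1.04 ± 0.0481) came next, the last pair within their spread, and Eda2r was lowest with 0.580 ± 0.101. In saline hyperoxia Zmat3 led with 45.5 ± 13.9, ahead of Phlda3 with 38.7 ± 10.2, with spreads that overlap. Perp then stood at 23.9 ± 8.04, and Eda2r had moved from rank 10 to rank 5 with 12.98 ± 2.74. Bbc3 was the lowest of the 10 with 1.93 ± 0.424.

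The hyperoxia libraries also differed among themselves in these genes. ATG hyperoxia 2 was the lowest of the 6 for 7 of the 10 members and the highest for Perp. Its log2 CPM lay -1.01 from the mean of the 6 hyperoxia libraries for Eda2r and 0.98 from it for Perp. Its cardiomyocyte markers summed to 6967 CPM, and their part in these values was not tested beyond leaving out libraries and the cardiac covariate. With each group's mean removed, the log2 CPM of a member and the mean of the other 9 had Pearson's r of 0.43 (Bbc3) to 0.88 (Zmat3) over the 12 libraries, apart from Perp with -0.64. These points share their library and its scaling, so the values are a description.

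**Figure D4:**
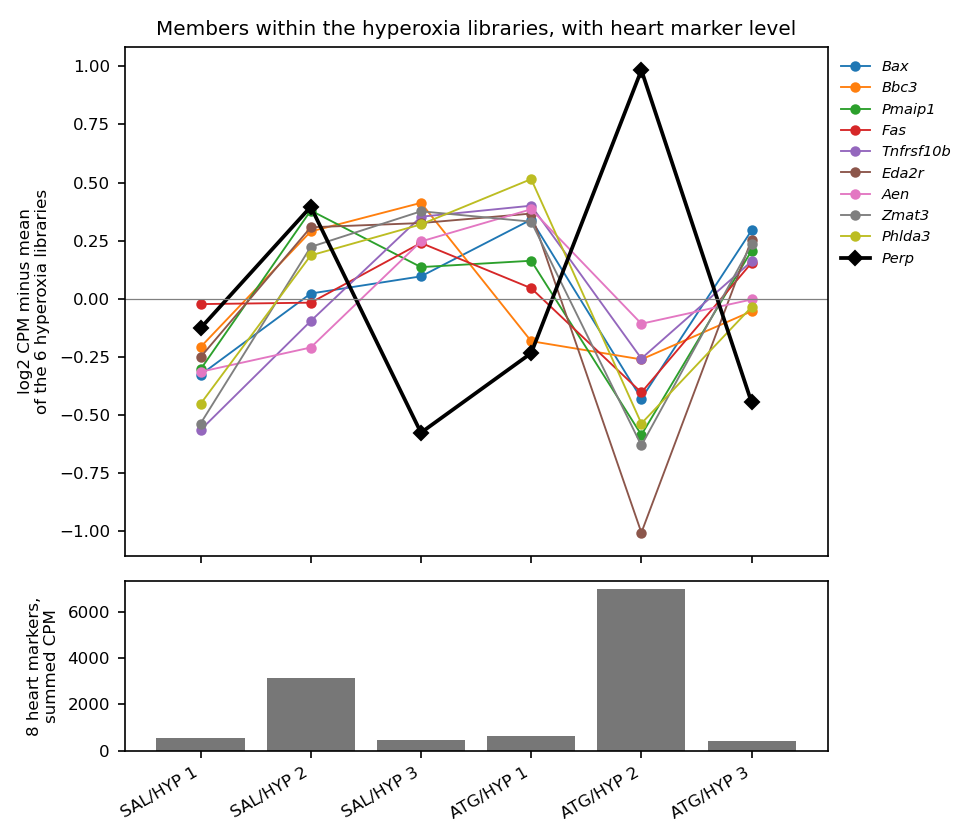
Log2 CPM of each member minus its mean over the 6 hyperoxia libraries, by library. ATG hyperoxia 2 is lowest for 7 of 10 members, with Eda2r at -1.01, and highest for Perp at 0.98.

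The second comparison asked whether ATG itself changed the death genes. In room air none of the 10 members was called at an adjusted p under 0.05 by edgeR's quasi-likelihood test, which called 0% of all genes. At an unadjusted p under 0.05 there was 1 member, Tnfrsf10b, and 949 of all genes. Its log2 fold change was 0.63 (SE 0.22, 95% interval 0.17 to 1.10, unadjusted p = 0.0111, adjusted p = 0.818). The 3 ATG libraries did not overlap the 3 saline ones for 4 members, Bax, Tnfrsf10b and Phlda3 being higher and Fas lower, and 12% of all genes did not overlap. The log2 differences were 0.25 (95% interval -0.17 to 0.67) for Bax, 0.20 (-0.32 to 0.72) for Phlda3 and -0.10 (-0.44 to 0.24) for Fas. DESeq2 called 16 genes in all and limma-voom 0 in this comparison, with no member among them.

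In hyperoxia none of the members was called for ATG either, where 0.00634% of all genes, 1 gene, was called. No member reached an unadjusted p under 0.05, which 897 of all genes did, and in none did the 3 ATG and 3 saline libraries separate, against 11.1% of all genes. The median log2 difference of the 10 members was -0.02. For Eda2r the difference was -0.16 (95% interval -0.74 to 0.42), for Bax 0.17 (-0.22 to 0.56) and for Zmat3 -0.03 (-0.54 to 0.47). The widest interval was that of Bbc3, -1.05 to 0.33 around -0.36, and the next that of Perp, -0.35 to 0.94 around 0.29.

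Whether the response to oxygen differed between injections was tested as an interaction, which called 0% of all genes and no member, with 0 members at an unadjusted p under 0.05. The difference between the log2 fold changes (ATG minus saline) was -0.04 (95% interval -1.05 to 0.98) for Eda2r and -0.08 (-0.65 to 0.50) for Bax. It was lowest for Tnfrsf10b at -0.45 (-1.08 to 0.18) and highest for Perp at 0.46 (-0.45 to 1.38). The intervals of all members include 0, and the lowest and highest bounds are those just given for Tnfrsf10b and Perp.

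The genes around the members were read next, from lists chosen by function. Trp53, which encodes p53, stood at 95.8 ± 3.37 CPM in saline room air and 97.5 ± 7.22 in saline hyperoxia (mean ± SD, n = 3). Its log2 fold change was 0.03 (95% interval -0.13 to 0.18) after saline and -0.02 (-0.18 to 0.14) after ATG. Of the 12 genes in the list of Trp53, its paralogs and its regulators, 1 was called higher in each comparison, Mdm2, which encodes the ubiquitin ligase that degrades p53 and is itself a target. Mdm2 had log2 fold changes of 0.99 (SE 0.11, adjusted p = 1.24e-04) and 0.92 (SE 0.11, adjusted p = 1.65e-04). After ATG the checkpoint kinase genes Chek1 (-1.52) and Chek2 (-0.79) were called lower. The Chek2 call ended without ATG room air 1 or 3 or ATG hyperoxia 2 (-0.76 to -0.57). Chek1 and Chek2 had -0.68 and -0.43 after saline, where neither passed. The list's median was -0.13 after saline and -0.10 after ATG.

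Targets of p53 for arrest, repair and feedback were called higher in 7 of 15 after saline and 6 of 15 after ATG, and lower in none, with medians of 0.50 and 0.49. Cdkn1a, the p21 inhibitor of the cell cycle, had 2.93 and 2.80, Gdf15 had 3.30 and 2.85, and the cyclin gene Ccng1 had 2.19 and 2.28. Among 11 other death genes linked to p53, Ei24 was called higher after saline (0.62) and after ATG (0.68, medians 0.31 and 0.43 for the list). After ATG, Siva1 was also called higher (0.46) and Bnip3l lower (-0.52). Siva1 and Bnip3l had 0.31 and -0.39 after saline, where neither passed. The Siva1 call ended without any 1 of 8 libraries (saline room air 2, saline hyperoxia 3 and all 6 ATG libraries, 0.40 to 0.55), and the Bnip3l call without any 1 of 6 (saline room air 1 or 2, ATG room air 1 or 3, ATG hyperoxia 2 or 3, -0.53 to -0.32). An antisense gene shares 6.66% of the exonic bases of Ei24, and another gene on the opposite strand shares 7.68% of those of Cdkn1a.

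**Figure D5:**
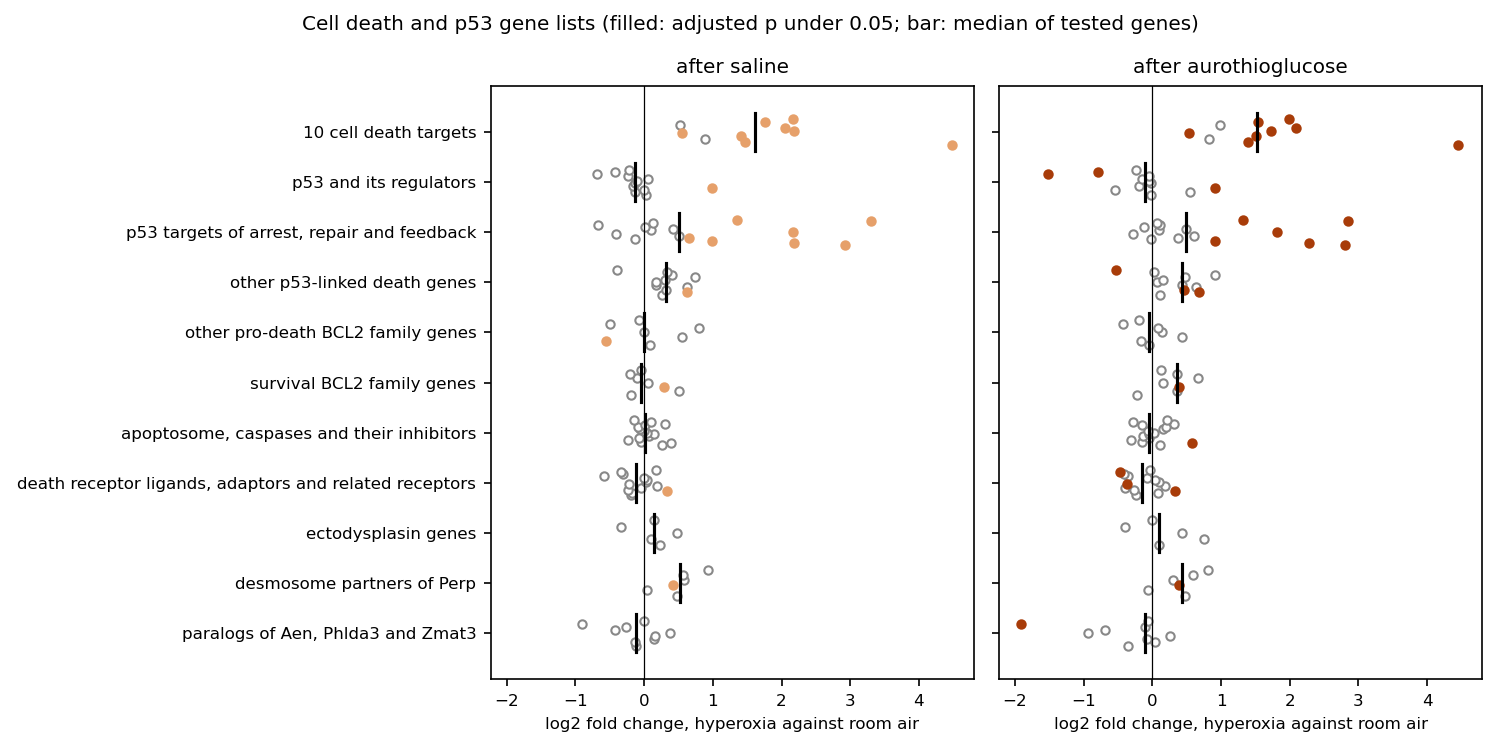
Log2 fold changes of the members and of the genes in each list, hyperoxia against room air after saline and after ATG, 1 point per gene, with the median of each list marked. The members' medians of 1.61 and 1.52 lie highest, and the arrest, repair and feedback list has medians of 0.50 and 0.49.

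Partners of the BCL2 members were mostly not called. Of 7 other death-promoting genes of the family tested, Bok was called lower after saline (-0.56), and none was called after ATG (medians -0.01 and -0.05). Bok had -0.17 after ATG. The Bok call ended when any 1 of the 6 saline libraries was left out (-0.60 to -0.46). Of 7 survival genes tested, Bcl2l2, which encodes BCL-w, was called higher after saline (0.29) and after ATG (0.39), though 13.3% of its exonic bases are shared with Gm20521 on the same strand (medians -0.04 and 0.36 for the list). The saline call for Bcl2l2 ended without saline room air 2 or 3, ATG room air 3, any saline hyperoxia library or ATG hyperoxia 1 (0.25 to 0.31). Of 15 apoptosome and caspase genes, none was called after saline (medians 0.02 after saline and -0.04 after ATG for the list). Cycs, the cytochrome c gene, was called higher after ATG (0.58) and had 0.39 after saline. The Cycs call ended without any ATG room air library or ATG hyperoxia 2 (0.42 to 0.64).

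Ligands and adaptors of the receptors were mostly not called. Tnfsf10, the TRAIL gene, had log2 fold changes of -0.19 and -0.24, and Eda, the ectodysplasin gene, 0.23 and 0.10, none of which passed. Fasl had 0 to 5 counts per library and was not tested. Of 14 genes in this list Tnfrsf1a was called higher in both comparisons (0.34 and 0.33, medians -0.11 and -0.16 for the list), the saline call ending without saline hyperoxia 2 (0.31). After ATG Fadd (-0.36) and Casp8 (-0.48), which carry the signal of FAS and TNFRSF10B, were called lower. Fadd and Casp8 had -0.22 and -0.34 after saline, where neither passed. The Fadd call ended without ATG room air 1 or 3 or any ATG hyperoxia library (-0.36 to -0.32), and the Casp8 call without ATG room air 1 (-0.45), ATG room air 3 (-0.42) or ATG hyperoxia 2 (-0.36). None of 5 ectodysplasin pathway genes was called in either comparison (medians 0.14 and 0.10). Of 9 paralogs of Aen, Phlda3 and Zmat3, none was called higher (medians -0.11 and -0.10 for the list). Zmat4 was called lower after ATG (-1.91) and had -0.90 after saline, where it did not pass. No gene of these lists was called in either drug comparison or in the interaction.

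The genes most like the members were found by Pearson's r of log2 CPM with the mean of the 10 members over the 12 libraries, among 11962 genes of sufficient level. The nearest were Ccng1 (r = 0.997), Cdkn1a (0.994), Sesn2 (0.989), 9030617O03Rik (0.989, named Dglucy in RefSeq) and Gm16197 (0.983, named Trp53cor1 in RefSeq). Ccng1, Cdkn1a and Sesn2 are themselves in the list of p53 targets for arrest, repair and feedback. These correlations follow the oxygen groups that all the libraries share and are given as a description.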

How the data were processed

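RNA was amplified by a NuGEN Ovation V2 kit and sequenced as paired reads, per the labels' protocols. The authors deposited raw counts per gene symbol, not normalized and not pooled. Per the submitters' processing notes, the tools included Bowtie2, Cufflinks and DESeq and the build was mm10. Which program counted the reads, whether it used strand and with what annotation is not given in the sources used here.

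Genes were kept by filterByExpr (minimum count 10, total 15), which left 15761 of 23478 genes. They were scaled by TMM and fitted over 12 libraries with 1 mean per group by edgeR 4.0.16 (quasi-likelihood test, R 4.3.3, 8 residual degrees of freedom). Two-sided p-values were adjusted by Benjamini-Hochberg over all tested genes, with a threshold of 0.05. Intervals are 95% and unadjusted. Log2 CPM used a prior count of 2. The likeness search required a mean of 5 CPM. Amplified reads are not independent molecules. Positions and promoters come from RefSeq (GRCm38.p6), and exon lengths from GENCODE for GRCm38.

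Alternatives were DESeq2 1.42.0, limma-voom (limma 3.58.1), RLE scaling, no filter, a replicate block, only the groups compared, sex or cardiac markers as a covariate, and fits without single libraries or those rich in heart or muscle markers. The fit was tested on simulated data for hyperoxia after saline (15575 genes). It recovered 61.6% of 99 genes changed by 1 and 22% of 100 changed by 0.5 on the log2 scale, with 7 false calls. The simulation changed far fewer genes than the 1449 called in the data. That makes the adjusted threshold stricter, so recovery in the data cannot be read from it. Genes named are the members, up to 4 genes of a list that passed for hyperoxia and 2 for the drug (smallest p first), the 5 most like the members, and Trp53, Cdkn1a, Mdm2, Bcl2, Bcl2l1, Mcl1, Fasl, Tnfsf10 and Eda whatever their p. The members and lists were chosen with earlier results of these data known.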

Additional observations from a re-analysis of the deposited data

How the results depend on the processing

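Under 22 alternatives, 7 members (Eda2r, Bax, Pmaip1, Tnfrsf10b, Aen, Phlda3 and Zmat3) passed in both hyperoxia comparisons every time, and Bbc3 in neither. No member passed for the drug or the interaction under any. Fas lost its saline call also with sex as a covariate and under limma-voom, and its ATG call under these, with no filter and with only the groups compared. Perp passed after ATG also under RLE scaling and with no filter. Of 3705 gene results under alternatives, 112 were no longer past the threshold and 19 newly past it, and none reversed while past it. A further 195 changed sign with neither value past it. The cause of these changes was not tested.

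Of 18 same-numbered pairs of libraries, 2 had deviations correlated above 0.1 (range -0.16 to 0.28). Both joined saline hyperoxia to ATG hyperoxia, for replicates 2 (0.28) and 3 (0.13). Pairs of unlike number were not compared, so whether replicate numbers pair the libraries was not settled. With the replicate block, 1356 genes were called after saline and 1762 after ATG, with 8 and 9 members, Perp joining after ATG at 0.87. Each Bax ratio had an exact p of 0.03125 when the signs of same-numbered differences were flipped, the smallest that this test can give.

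The 1449 genes called after saline became 781 without the 3 heart- or muscle-rich libraries and 740 to 1704 with single libraries left out. The 1840 after ATG became 1150 to 2041 with single libraries left out. For the drug in room air, DESeq2 called 16 genes where the edgeR count was 0, and leaving out single libraries gave 0 to 1. For the drug in hyperoxia the 1 gene became 3 with no filter, 3 under limma-voom and 10 under DESeq2. It became 0 with sex as a covariate or without the 2 heart-rich libraries, and 0 to 2 with single libraries left out. Members called stayed at 7 to 9 in both hyperoxia comparisons. Bbc3 and Pmaip1 had few counts, though Pmaip1 passed in both hyperoxia comparisons every time. Members not called cannot be taken as unchanged. The simulation, with fewer changed genes than the data, does not give their recovery.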
